A study of Mus musculus with 18 samples.

Results

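The solute carriers are the transporters whose gene symbols begin with Slc and a number, and they were taken here as every array probe annotated with such a symbol except that of Slc4a4. There were 171 such probes of 169 genes in 46 numbered families, out of 10500 probes and 8841 named genes on the array. Of these, 118 probes of 118 genes in 42 families were measured well enough to be tested, and 53 probes were not: 52 were dim and 1 had too few values. The rule also takes in 3 symbols that are not transporters but adaptor or nuclear proteins that bear the name of a carrier (Slc4a1ap, Slc9a3r1 and Slc9a3r2).

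RNA came from the lacrimal gland, which secretes the aqueous layer of the tear film, the meibomian gland, the lipid-secreting gland of the eyelid, and the submandibular salivary gland. All mice were orchiectomised BALB/c males, so the testes were absent in both treatments, and they carried either a placebo pellet or a testosterone pellet for 21 days. Each of the 6 groups of gland and treatment had 3 pools, named A, B and C, and each pool was measured on 1 array, 18 in all. The labels describe a pool as 10 glands from 5 animals and elsewhere give 4 animals per sex and experiment. They do not say whether pools of 1 letter share mice across glands, nor give the animals' age.

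Solute carriers are membrane proteins that move small molecules across the plasma membrane or the membranes of mitochondria, the Golgi and vesicles, either along a gradient or coupled to the flow of sodium, protons or another solute. In exocrine glands the sodium pump sets the sodium gradient, cotransporters of sodium, potassium and chloride load the acinar cell with chloride for fluid secretion, amino acid carriers supply the synthesis of secreted protein, and nucleotide sugar carriers of the Golgi supply its glycosylation. Androgens act through a nuclear receptor that binds DNA, and these glands are known to respond to them.

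Values are scaled probe intensities on a linear scale. Changes are differences of log2(intensity + 0.174) between testosterone and placebo, ± SE, so changes of low values are understated. A probe was called to rise or fall at an adjusted p under 0.05 in a limma fit of all 18 arrays, adjusted over all 7463 tested probes. In whole glands fewer cells of a type and less RNA per cell cannot be told apart. The p-values of this fit measure the spread between the 3 pools of a group, estimated jointly over the groups of all 18 arrays. The p-value for a gland therefore also depends on the spread in the other glands.

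Some arrays stood apart. The brightest probe lay between 134.6 and 219.1 on meibomian arrays, against 597.5 to 1042 on lacrimal and 636.3 to 742.6 on submandibular arrays. The 10th percentile lay between 0.05144 and 0.07412 on meibomian arrays, against 0.2114 to 0.3157 on lacrimal and 0.2113 to 0.2427 on submandibular arrays. The spread within groups was lower in the meibomian gland (median SD of 0.135 on the log2 scale) than in the lacrimal (0.219) and submandibular (0.22) glands. Single probes read far below the other pools of their group mostly in the submandibular gland: a value more than 5 times below both other pools, where those were at least 1, occurred for 55 tested probes in placebo pool C, 100 in testosterone pool A and 108 in testosterone pool C, against at most 36 in any other pool. They included 6 solute carriers, 3 of them in placebo pool C, 1 in testosterone pool A and 2 in testosterone pool C.

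**Figure D1:**
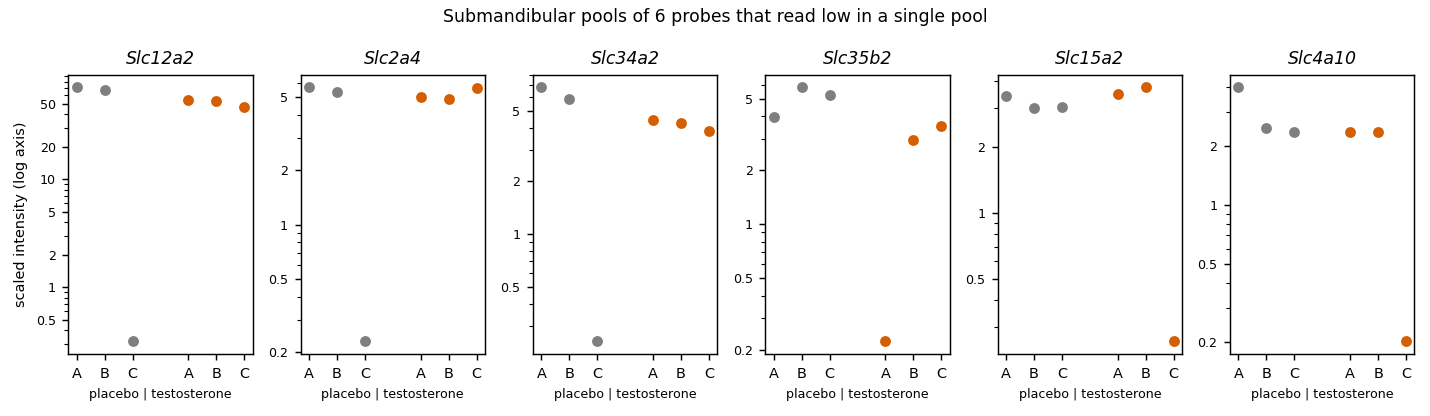
Scaled intensity (log axis) of 6 solute carriers in each submandibular pool, placebo in grey and testosterone in orange. In each panel a single pool reads far below the others, such as Slc12a2 at 0.316 in placebo pool C against 71.3 and 66.5 in pools A and B.

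The gland labels were checked against markers of each gland. Elovl3 and Elovl4, which lengthen the fatty acids of meibum, read 102 ± 2.87 and 125 ± 2.95 (SD, n = 3) in the meibomian placebo pools and below 1 in the other glands. The kallikrein Klk1b5 read 687 ± 49.7 in the submandibular and 5.25 ± 8.17 in the lacrimal placebo pools. Ltf read 79.4 ± 4.29 in the lacrimal gland, whereas Car6 was bright in the lacrimal (547 ± 24.5) and the submandibular gland (509 ± 31.6). Skeletal muscle markers were present in the meibomian pools, where 10 probes summed to 199 to 247 in placebo, against 7.4 to 8.02 in the lacrimal and 5.55 to 13.4 in the submandibular gland.

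With testosterone, 40 of the 118 solute carrier probes changed in the lacrimal gland, 22 higher and 18 lower, which is 33.9% against 28.1% of all tested probes (18.6% against 13.3% higher, and 15.3% against 14.8% lower). Carriers of fatty acids, myo-inositol, glutamate and urea rose most, and the peptide transporter Slc15a2 and the monocarboxylate transporter Slc16a7 fell most. All called carriers of phosphate, vitamins and urea and of nucleosides and nucleotide sugars rose, and all called carriers of metal ions fell. For nucleosides and nucleotide sugars 4 of 14 were called, a share near that of all tested probes. The median change of the solute carriers was -0.02, against -0.07 over all tested probes. For 51 solute carriers (43.2%, against 39.7% of all probes) the 3 placebo and the 3 testosterone pools did not overlap.

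Slc27a2, an acyl-CoA synthetase of very long-chain fatty acids that also takes up fatty acids, read 22.4, 19.2 and 19.7 in the lacrimal placebo pools (in the order A, B, C) and 315, 208 and 219 with testosterone. It had the largest rise among the members, 3.56 ± 0.25 (11.8-fold, adjusted p = 9.04e-09), and no testosterone pool overlapped a placebo pool. Slc5a3, the sodium-coupled myo-inositol transporter, read 0.822, 0.611 and 0.589 in placebo pools and 4.42, 6.05 and 6.04 with testosterone (2.74 ± 0.14, adjusted p = 2.60e-10). Slc17a6, a vesicular glutamate transporter best known from neurons, went from 0.318, 0.607 and 0.468 to 3.92, 3.02 and 3.08 (2.48 ± 0.18, adjusted p = 2.03e-08). The groups were apart for both genes. A second probe of Slc17a6 was dim in every group, at 0.376, 0.458 and 0.258 in lacrimal placebo pools and 0.542, 0.2 and 0.264 with testosterone, so that the rise rests on 1 of 2 probes.

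**Figure D2:**
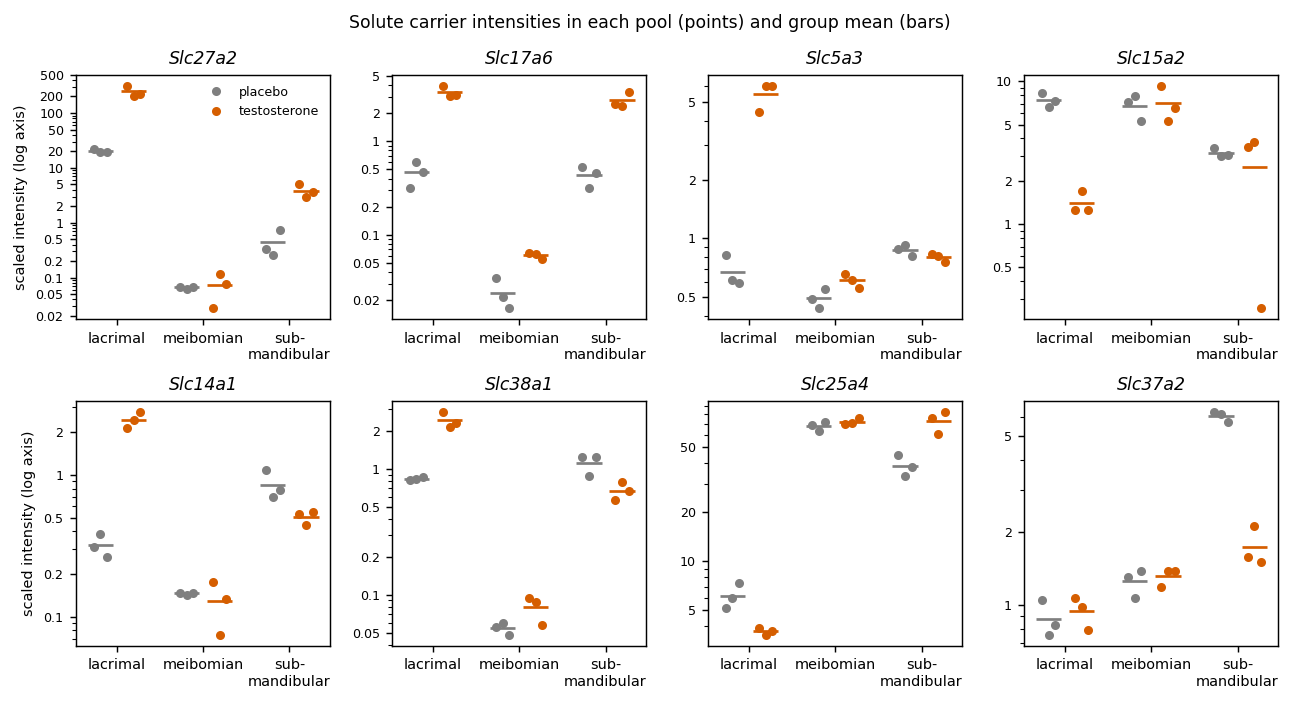
Scaled intensity (log axis) of 8 solute carriers in each pool (points) and the group mean (bars), placebo in grey and testosterone in orange, for the 3 glands. Slc27a2 and Slc17a6 rise in the lacrimal and submandibular glands, Slc5a3 rises and Slc15a2 falls in the lacrimal gland, Slc14a1 and Slc38a1 rise in the lacrimal and fall in the submandibular gland, Slc25a4 does the reverse, and Slc37a2 falls in the submandibular gland.

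Of the 8 tested carriers of phosphate, vitamins and urea, 5 rose in the lacrimal gland and none fell (median change 0.64), where 13.3% of all tested probes were called higher and 14.8% lower. The urea transporter Slc14a1 read 0.311, 0.384 and 0.263 in placebo pools and 2.13, 2.45 and 2.78 with testosterone (2.41 ± 0.16, adjusted p = 6.33e-09). Its relative Slc14a2 rose less, from a mean of 0.882 ± 0.143 to 1.48 ± 0.289 (SD, n = 3; 0.64 ± 0.17, adjusted p = 0.0118). The vitamin C transporter Slc23a1 rose from 2.56, 4.03 and 4.11 to 5.95, 7.54 and 10.1 (1.10 ± 0.21, adjusted p = 9.87e-04). A second, dim probe of Slc14a1 was not tested and read 0.439, 0.505 and 0.417 in lacrimal placebo pools and 0.432, 0.187 and 0.362 with testosterone, so this rise too rests on 1 of 2 probes. The sodium-coupled phosphate transporters Slc34a1 and Slc20a1 rose by 0.66 ± 0.15 and 0.64 ± 0.17. Slc34a1 was tested only through its lacrimal testosterone arrays, the group that read higher in this comparison.

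Among the 15 tested amino acid carriers 4 rose and 1 fell in the lacrimal gland, a share of calls near the 28.1% of all tested probes. Slc38a1, which takes up glutamine with sodium, read 0.816, 0.838 and 0.865 in placebo pools and 2.84, 2.16 and 2.33 with testosterone (1.36 ± 0.14, adjusted p = 1.81e-06). Slc7a11, the cystine and glutamate exchanger, rose from 2.28, 2.07 and 1.78 to 4.01, 4.29 and 4.52 (1.01 ± 0.13, adjusted p = 1.71e-05). The neutral amino acid exchanger Slc7a8 rose by 1.15 ± 0.23, and Slc43a1, a facilitative carrier of large neutral amino acids, by 1.14 ± 0.22 with 1 testosterone pool without a value (0.10 and no longer called if that value is counted as 0). Slc1a4, which exchanges alanine, serine and cysteine, fell by 0.70 ± 0.25. The widely expressed pair Slc7a5 and Slc3a2, the light and heavy chain of a large neutral amino acid exchanger, did not pass the test: Slc7a5 read 8.57, 8.59 and 7.71 in placebo pools and 10.9, 9.65 and 13.5 with testosterone, and Slc3a2 read 9.86, 14.5 and 11.3, and 13.8, 11.2 and 18.1.

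Of the 8 tested carriers of transmitters and related solutes, 1 fell and 3 rose in the lacrimal gland, where 14.8% of all tested probes were called lower and 13.3% higher. Besides Slc17a6 the rises were of Slc6a14, a broad amino acid transporter of epithelia (0.58 ± 0.20, adjusted p = 0.0358), and the taurine transporter Slc6a6 (0.60 ± 0.16, adjusted p = 0.00949). The glycine transporter Slc6a9 fell from 0.703, 1.12 and 0.985 to 0.331, 0.519 and 0.449 (-0.87 ± 0.18, adjusted p = 0.00152). Slc6a9 was tested only through its lacrimal placebo arrays, as it was too dim on all others. The group that read higher in this comparison thus also decided that the gene was tested, which the p-value does not take into account.

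Carriers of nucleosides and nucleotide sugars had 4 rises and no fall among 14 tested, a share of calls near the 28.1% of all tested probes. Over all tested probes 13.3% were called higher and 14.8% lower. Slc29a3, a nucleoside transporter of lysosomes, rose from 17.5, 19.8 and 19.5 to 28.7, 25.6 and 25.8 (0.49 ± 0.11, adjusted p = 0.00379). Slc35b1, which exchanges ATP and ADP across the endoplasmic reticulum, rose by 0.70 ± 0.16, Slc35a5 of the nucleotide sugar family by 0.63 ± 0.16 and Slc35f6 by 0.56 ± 0.13. The pools did not overlap for Slc29a3, Slc35a5, Slc35b1 and Slc35f6, as for 39.7% of all tested probes.

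Of 13 tested metal ion carriers 6 fell in the lacrimal gland and none rose, where 14.8% of all tested probes were called lower. Their median change was -0.39, against -0.07 over all tested probes. The copper importer Slc31a1 read 3.15, 3.32 and 3.55 in placebo pools and 1.69, 1.84 and 2.22 with testosterone (-0.76 ± 0.14, adjusted p = 6.34e-04). Slc31a2, a copper transporter of intracellular vesicles, read 57.3, 58.5 and 79.4, and 26.7, 35.3 and 40.7 (-0.93 ± 0.31, adjusted p = 0.0329). The zinc and manganese importer Slc39a8 fell from a mean of 1.19 ± 0.244 to 0.542 ± 0.183 (-0.95 ± 0.18). The fall was 0.88 ± 0.25 for Slc39a9 and 0.39 ± 0.12 for Slc39a7, the zinc carrier of the endoplasmic reticulum, and the zinc exporter Slc30a4 fell by 0.45 ± 0.16.

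Slc15a2, which takes up di- and tripeptides with protons, had the largest fall in the lacrimal gland. It read 8.35, 6.63 and 7.29 in placebo pools and 1.27, 1.72 and 1.26 with testosterone (-2.26 ± 0.56, 4.8-fold lower, adjusted p = 0.00583). The SE came mostly from 1 submandibular pool (testosterone C, 0.259 against 3.5 and 3.75), and without that array it was 0.19 with an adjusted p of 1.59e-07. The urate transporter Slc22a12 fell less, from 20.1, 23.0 and 19.9 to 17.6, 15.8 and 13.4 (-0.43 ± 0.14, adjusted p = 0.0253). Slc16a7, which carries pyruvate, lactate and ketone bodies, read 6.44, 5.46 and 6.25, and 2.74, 1.91 and 2.14 with testosterone (-1.36 ± 0.15, adjusted p = 2.73e-06).

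Of the 17 tested mitochondrial carriers 2 rose and 3 fell in the lacrimal gland, a share near the 28.1% of all tested probes. Slc25a33, which carries pyrimidine nucleotides, read 4.78, 6.26 and 5.11 in placebo pools and 15.2, 10.7 and 13.2 with testosterone (1.24 ± 0.15, adjusted p = 7.73e-06). The citrate carrier Slc25a1 rose by 0.67 ± 0.17. The aspartate and glutamate carrier Slc25a12 fell by 0.72 ± 0.17, the iron importer Slc25a37 by 0.68 ± 0.21 and the adenine nucleotide translocator Slc25a4 by 0.69 ± 0.14. Slc25a5, another adenine nucleotide translocator, read 101, 95.2 and 94.0 in placebo pools and 102, 83.8 and 88.0 with testosterone, and did not pass the test.

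Other lacrimal calls were the following. The intestinal-type bile acid transporter Slc10a2 rose by 1.03 ± 0.19 and the sodium, calcium and potassium exchanger Slc24a2 by 0.84 ± 0.17. The sodium-coupled glucose transporter Slc5a1 fell by 0.72 ± 0.15, the fatty acid transport protein Slc27a1 by 0.50 ± 0.13 and the sulfate transporter Slc26a2 by 0.48 ± 0.13. Slc44a4, a choline transporter-like protein, fell by 1.15 ± 0.34 although its pools overlapped: 1.94, 5.0 and 4.98 in placebo and 2.11, 1.37 and 1.29 with testosterone. Lacrimal markers fell as well (3 of 3, summed intensity 634 to 670 in placebo and 269 to 416 with testosterone), and 2 of 7 lymphocyte markers rose (summed 70.5 to 79.5, and 101 to 113). Markers of macrophages and antigen presenting cells (2 of 7), adipocytes (1 of 4) and skeletal muscle (1 of 10) fell. A keratinocyte marker rose (1 of 7). Over all tested probes 13.3% were called higher and 14.8% lower. The part of these markers in the changes of solute carriers was not tested.

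Of the 40 lacrimal calls, 27 held whichever of the 18 arrays was left out, in the runs that tested them. Among the 27, Slc34a1 was not tested when a lacrimal testosterone array was left out. Slc6a9 was not tested when a lacrimal placebo array was left out. For these genes the runs therefore cannot show whether the call depends on those arrays. The other 13 lost significance without 1 or more arrays. The adjusted p rose to at most 0.0552 for Slc14a2 without testosterone pool B, 0.0615 for Slc20a1 without placebo pool B, and 0.0519 for Slc6a6 and 0.0662 for Slc26a2 without placebo pool C. It rose to 0.105 for Slc25a37 and 0.12 for Slc31a2 without placebo pool C, 0.0859 for Slc44a4 without placebo pool B, and 0.195 for Slc30a4, 0.112 for Slc39a7 and 0.141 for Slc6a14 without placebo pool A. Without testosterone pool C it was 0.126 for Slc22a12 and 0.081 for Slc39a9, and without testosterone pool B it was 0.223 for Slc1a4. Of the 6 falls of metal ion carriers, those of Slc31a1 and Slc39a8 were among the 27.

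**Figure D3:**
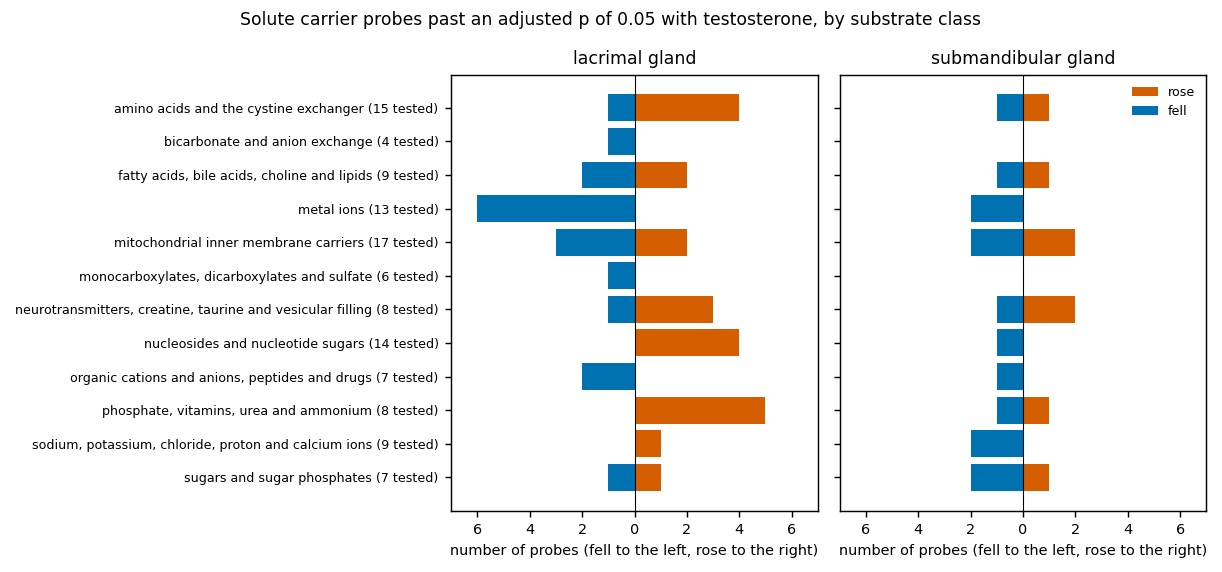
Number of solute carrier probes that rose (right, orange) or fell (left, blue) with testosterone at an adjusted p under 0.05, by substrate class, in the lacrimal and the submandibular gland; the number tested is beside each class. In the lacrimal gland 6 of 13 metal ion carriers fell and 5 of 8 carriers of phosphate, vitamins and urea rose. The 5 include Slc34a1, which was tested only through its lacrimal testosterone arrays.

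In the submandibular gland 23 of 118 solute carriers changed with testosterone, 8 higher and 15 lower. The falls made up 12.7% of the members against 5.25% of all tested probes, and the rises 6.78% against 8.54%. The fatty acid transporter Slc27a2, the glutamate transporter Slc17a6 and the phosphate transporter Slc20a1 rose most. The sugar phosphate exchanger Slc37a2 and Slc12a8, of the cation and chloride cotransporter family, fell most. The count depends on which arrays share the estimate of spread: the 6 submandibular arrays fitted alone gave 9 calls, 5 higher and 4 lower, all among the 23. Falls thus did not outnumber rises in that fit, whose share of calls over all probes is not given here.

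Slc27a2 read 0.336, 0.26 and 0.73 in the submandibular placebo pools and 5.02, 2.97 and 3.59 with testosterone (2.75 ± 0.25, adjusted p = 8.87e-07). Slc17a6 read 0.536, 0.315 and 0.454 in placebo pools and 2.47, 2.38 and 3.32 with testosterone (2.25 ± 0.18, adjusted p = 2.85e-07). Slc20a1 read 0.661, 0.637 and 0.771, and 2.26, 2.19 and 1.96 (1.42 ± 0.17, adjusted p = 3.19e-05). For these 3 genes every testosterone pool lay above every placebo pool. Slc7a8 rose by 1.08 ± 0.23, Slc25a4 by 0.91 ± 0.14, Slc25a33 by 0.67 ± 0.15, the glucose transporter Slc2a1 by 0.64 ± 0.20 and Slc6a6 by 0.52 ± 0.16.

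Slc37a2, which exchanges glucose 6-phosphate for phosphate, read 6.29, 6.17 and 5.73 in placebo pools and 1.59, 2.12 and 1.51 with testosterone (-1.72 ± 0.15, adjusted p = 8.87e-07). Slc12a8 read 6.91, 6.09 and 6.82, and 1.86, 2.72 and 2.26 (-1.48 ± 0.27, adjusted p = 0.00144). Both genes were near 1 or lower in both treatments of the lacrimal gland. Slc25a37, which brings iron into mitochondria, read 36.6, 69.3 and 71.5 in placebo pools and 32.0, 29.4 and 29.1 with testosterone (-0.90 ± 0.21, adjusted p = 0.00809). The iron importer Slc11a2 fell by 0.88 ± 0.24, the iron exporter Slc40a1 by 0.84 ± 0.25, and Slc48a1, which moves heme out of lysosomes, by 0.72 ± 0.15. These 4 genes were set side by side after their values were seen. In the submandibular arrays fitted alone the adjusted p was 0.165 for Slc11a2, 0.0922 for Slc25a37 and 0.0856 for Slc48a1, so that 1 of the 4, Slc40a1, kept its call (0.019).

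The other falls in the submandibular gland were of Slc6a14 (-0.85 ± 0.20), the adaptor Slc9a3r2 (-0.72 ± 0.16), Slc27a1 (-0.68 ± 0.13), Slc38a1 (-0.61 ± 0.14), the nucleoside transporter Slc29a2 (-0.58 ± 0.16), Slc14a1 (-0.58 ± 0.16), the S-adenosylmethionine carrier Slc25a26 (-0.53 ± 0.16) and Slc5a1 (-0.48 ± 0.15). Slc22a17, a receptor for lipocalin 2, fell by 1.26 ± 0.40, with 1.59, 1.69 and 1.46 in placebo pools and 0.953, 1.08 and 0.101 with testosterone; without testosterone pool C the fall was 0.56 with an adjusted p of 0.121. Of the submandibular calls 13 held whichever array was left out. The adjusted p rose to 0.106 for Slc11a2 and 0.147 for Slc2a1 without placebo pool C, 0.09 for Slc14a1 without placebo pool A, 0.168 for Slc25a26 without testosterone pool C, and 0.0899 for Slc29a2 and 0.101 for Slc5a1 without testosterone pool B. Without testosterone pool A it was 0.0537 for Slc38a1, 0.101 for Slc40a1 and 0.15 for Slc6a6. Skeletal muscle markers fell in this gland (3 of 10, summed 5.55 to 13.4 in placebo and 4.95 to 5.21 with testosterone), as did 2 of 4 adipocyte markers (summed 49.9 to 143, and 44.4 to 48), and 4 of 7 macrophage markers rose (summed 67.8 to 75, and 78.7 to 85.7). Their part was not tested.

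In all, 13 solute carriers were called in both the lacrimal and the submandibular gland, 32.5% of the lacrimal and 56.5% of the submandibular calls. Over all tested probes these shares were 19.9% and 40.5%. Of these, 6 rose in both (Slc17a6, Slc20a1, Slc25a33, Slc27a2, Slc6a6 and Slc7a8) and 3 fell in both (Slc25a37, Slc27a1 and Slc5a1). With each gland's arrays fitted alone, Slc17a6, Slc27a2 and Slc7a8 of these 9 kept both calls. The submandibular adjusted p was then 0.0552 for Slc25a33, 0.107 for Slc6a6, 0.0922 for Slc25a37, 0.0628 for Slc27a1 and 0.089 for Slc5a1, and the lacrimal one was 0.0509 for Slc20a1. Slc14a1, Slc38a1 and Slc6a14 rose in the lacrimal and fell in the submandibular gland, and Slc25a4 did the reverse. Over all tested probes 172 of the 417 called in both glands had opposite directions (41.2%).

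For the 4 carriers with opposite calls the difference between the changes follows from how they were picked and is given as a size without a test. The urea transporter Slc14a1 read 1.08, 0.703 and 0.781 in submandibular placebo pools and 0.533, 0.444 and 0.549 with testosterone, and the lacrimal change exceeded the submandibular one by 2.99 ± 0.23. For Slc38a1 the submandibular values were 1.24, 0.882 and 1.24, and 0.563, 0.782 and 0.668, a difference in change of 1.97 ± 0.20. Slc6a14 read 1.45, 1.14 and 1.29, and 0.413, 0.775 and 0.788, with a difference of 1.43 ± 0.28. Slc25a4, which exchanges ATP and ADP across the inner mitochondrial membrane, read 44.8, 33.4 and 37.7 in submandibular placebo pools and 75.8, 60.4 and 82.5 with testosterone, while in the lacrimal gland it read 5.21, 5.98 and 7.33, and 3.92, 3.56 and 3.74. The lacrimal minus the submandibular change was -1.60 ± 0.20. In the submandibular arrays fitted alone the falls of Slc14a1, Slc38a1 and Slc6a14 had adjusted p-values of 0.109, 0.103 and 0.079, and the rise of Slc6a14 in the lacrimal arrays alone had 0.0527.

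**Figure D4:**
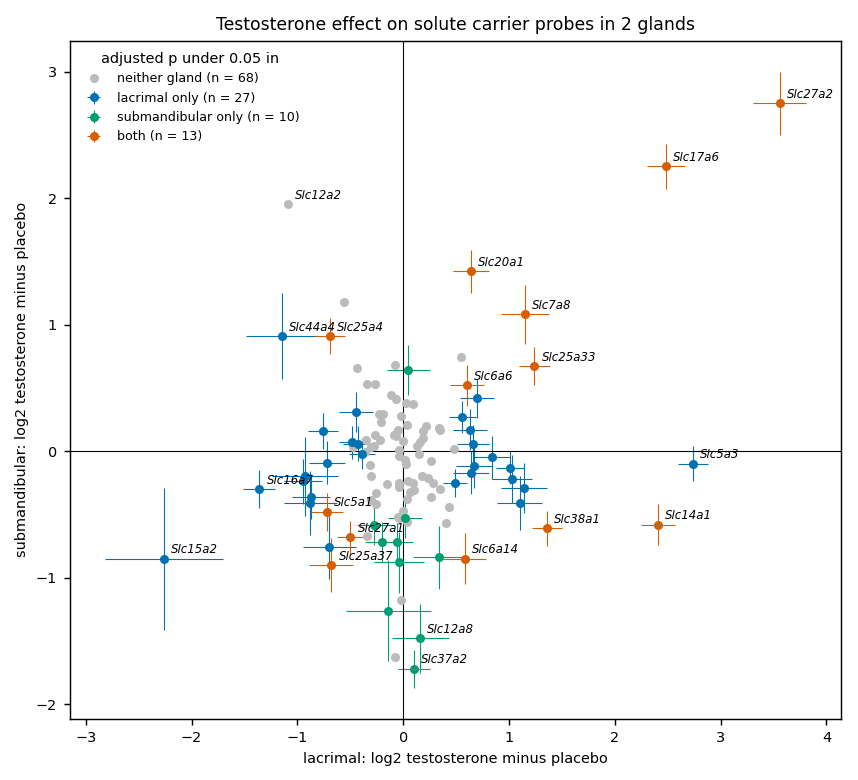
Change with testosterone in the submandibular gland (vertical axis, log2) against that in the lacrimal gland (horizontal axis, log2) for the 118 tested solute carrier probes, with SE for called probes; colours give the gland or glands in which a probe was called. The 13 probes shown in orange were called in both glands, with Slc27a2 and Slc17a6 at the upper right and Slc14a1, Slc38a1 and Slc6a14 below the horizontal line at the right.

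Over the 3 glands an F test of the differences between changes called 34 of 118 solute carriers (28.8%), against 27.7% of all tested probes. Between the lacrimal and the submandibular gland 28 changes differed (23.7%, against 24% of all probes), 20 higher (16.9%, against 10.3%) and 8 lower (6.78%, against 13.8%) in the lacrimal gland. Between the lacrimal and the meibomian gland 18 differed (15.3%, against 17.6%), 12 higher (10.2%, against 6.99%) and 6 lower (5.08%, against 10.6%) in the lacrimal gland. Between the meibomian and the submandibular gland it was 15 (12.7%, against 7.4%), 8 higher (6.78%, against 3.4%) and 7 lower (5.93%, against 3.99%) in the meibomian gland. Slc5a3 had a lacrimal change 2.84 ± 0.20 above the submandibular one (adjusted p = 2.88e-08), where it read 0.883, 0.921 and 0.815 in placebo pools and 0.834, 0.817 and 0.756 with testosterone. Slc37a2 differed by 1.82 ± 0.22 (adjusted p = 1.13e-05), Slc12a8 by 1.64 ± 0.38 (adjusted p = 0.00522) and Slc23a1 by 1.51 ± 0.30 (adjusted p = 0.00169). For Slc27a2 and Slc17a6 the difference between these glands did not pass the test: it was 0.81 ± 0.35 (adjusted p = 0.106) and 0.22 ± 0.26 (adjusted p = 0.578). For Slc15a2 it was -1.41 ± 0.79 (adjusted p = 0.216), again with the low submandibular pool in the fit.

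In the meibomian gland no solute carrier was called with testosterone in limma, where 0.59% of all tested probes were (0.469% higher and 0.121% lower). At an unadjusted p under 0.05 there were 17 members (14.4%, against 14.2% of all probes), and for 41 (34.7%, against 35.9% of all probes) the pools of the groups did not overlap. The lowest adjusted p was that of Slc7a11, which read 0.462, 0.614 and 0.589 in placebo pools and 0.983, 0.899 and 0.869 with testosterone (0.59 ± 0.13, adjusted p = 0.0526). Slc29a3 followed with 8.43, 8.21 and 9.09, and 13.5, 12.5 and 10.4 (0.49 ± 0.11, adjusted p = 0.0648). The 6 meibomian arrays fitted alone called 4 members (and 4.59% of all probes tested there): Slc7a11, the bile acid transporter Slc10a1 and the folate transporter Slc19a1 higher, and Slc1a4 lower. With array weights, which down-weight noisier arrays, 32 members were called there, 21 higher and 11 lower, and 26.7% of all tested probes. Slc27a2 (mean 0.0665 ± 0.00277) and Slc17a6 lay below the offset of 0.174 in every meibomian pool.

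The promoters of 3 carriers with called changes are shown with the hexamer of the androgen receptor: Slc27a2 has the largest rise in both glands, Slc20a1 rose in both and holds a match in the second of its 2 windows, and Slc15a2 has the largest fall in the lacrimal gland and holds 2. They are the 250 bases before an annotated start in RefSeq's table for GRCm38.p6, read 5′ to 3′ along the gene, at chr2:126552774-126553023 (plus strand), chr2:129206846-129207095 (plus strand) and chr16:36784963-36785212 (minus strand). Capitals mark the hexamer AGAACA or its reverse complement TGTTCT, part of the known androgen response element, whose full palindrome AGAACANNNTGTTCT was searched too; both were searched on both strands.
Slc27a2: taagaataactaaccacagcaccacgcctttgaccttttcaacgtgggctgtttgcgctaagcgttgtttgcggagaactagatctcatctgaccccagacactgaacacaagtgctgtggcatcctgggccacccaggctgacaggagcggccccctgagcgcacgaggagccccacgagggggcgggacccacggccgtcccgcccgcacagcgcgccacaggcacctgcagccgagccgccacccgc
Slc20a1: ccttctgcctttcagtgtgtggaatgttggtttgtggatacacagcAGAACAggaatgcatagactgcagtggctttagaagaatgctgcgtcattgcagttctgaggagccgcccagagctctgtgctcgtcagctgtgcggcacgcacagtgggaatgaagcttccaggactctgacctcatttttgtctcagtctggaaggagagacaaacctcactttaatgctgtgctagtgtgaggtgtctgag
Slc15a2: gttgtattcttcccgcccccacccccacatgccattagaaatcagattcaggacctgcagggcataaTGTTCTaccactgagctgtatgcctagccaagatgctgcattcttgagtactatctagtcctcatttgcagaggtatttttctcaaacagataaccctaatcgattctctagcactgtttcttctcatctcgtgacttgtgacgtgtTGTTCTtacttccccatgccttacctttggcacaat

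The match of Slc20a1 began 204 bases before the start, and those of Slc15a2 183 and 36 bases before it. The hexamer was present in 16.1% of all 32851 such windows outside chromosome 18 and in 11.3% of the 133 windows of tested solute carriers, and the full palindrome in 3 windows overall and in no tested solute carrier. Counted by gene, with any of its windows, 14 of 97 tested solute carriers held the hexamer (14.4%). Of the 6 genes that rose in both glands 5 were in the table, and 1 of these, Slc20a1, held the hexamer. A match describes these letters and is not a binding site.

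The placebo pools show which carriers each gland held without testosterone. Of 118 solute carriers 90 differed between the lacrimal and the meibomian gland (76.3%, against 67.9% of all tested probes) and 91 between the meibomian and the submandibular gland (77.1%, against 66.6%). In the first of these, 63 were higher in the lacrimal gland (53.4%, against 38.7%) and 27 lower (22.9%, against 29.2%). In the other, 29 were higher in the meibomian gland (24.6%, against 30.6%) and 62 lower (52.5%, against 36%). Between the lacrimal and the submandibular gland 56 differed (47.5%, against 44%), 31 higher (26.3%, against 26.2%) and 25 lower (21.2%, against 17.8%) in the lacrimal gland. Called lower in the meibomian gland than in both others were 51 members (43.2%, against 28.8% of all probes), and higher than in both others were 20 (16.9%, against 22.6%). The lacrimal gland had 23 members higher than both others (19.5%, against 18%), and the submandibular gland 14 (11.9%, against 9.59%). Lower than both others were 11 in the lacrimal (9.32%, against 8.62%) and 9 in the submandibular gland (7.63%, against 8.64%). Each gland's placebo pools enter a pair of these comparisons, and those with the meibomian gland also include the different range of its arrays. The 10th percentile of its arrays lay below that of every array of the other glands. The dim, untested probe of Slc17a6 had placebo means of 0.0432 in meibomian, 0.364 in lacrimal and 0.293 in submandibular pools. The tested probe, among the 51, had 0.0242, 0.464 and 0.435 in the same order. The part of this lower floor in the calls was not tested.

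Each gene named as highest in a gland passed the test against both others. In the lacrimal gland the members called highest included carriers of amino acids, copper, urate and vitamin C. Slc27a2 read 22.4, 19.2 and 19.7 there in placebo, 0.0683, 0.0633 and 0.0679 in meibomian and 0.336, 0.26 and 0.73 in submandibular pools. The urate transporter Slc22a12 read 21.0 ± 1.73 (SD, n = 3), against 1.25 ± 0.0657 in meibomian and 5.61 ± 0.987 in submandibular pools. Slc31a2 read 65.0 ± 12.4, against 12.5 ± 3.06 and 6.75 ± 0.828. The amino acid carriers Slc1a5, which takes up glutamine, and Slc7a5 read 4.81 ± 0.9 and 8.29 ± 0.5 in the lacrimal gland, 0.428 ± 0.0421 and 2.34 ± 0.179 in the meibomian gland, and 1.32 ± 0.165 and 1.49 ± 0.369 in the submandibular gland. The dicarboxylate carrier of mitochondria Slc25a10 read 5.91 ± 0.532, 0.627 ± 0.0779 and 0.96 ± 0.184 in the same order, and Slc23a1 3.57 ± 0.875, 0.0461 ± 0.019 and 0.352 ± 0.0269.

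The 20 members called highest in the meibomian gland included 4 mitochondrial carriers and 2 of fatty acids and lipids, while 8 and 3 of these classes were among the 51 called lowest there. Keratinocyte markers summed to 289 to 332 in its placebo pools, against 4.54 to 5.08 in the lacrimal and 8.32 to 16.2 in the submandibular gland, and their part was not tested. Slc27a4, the fatty acid transport protein of skin and intestine, read 6.41 ± 0.696, against 1.16 ± 0.301 in lacrimal and 1.2 ± 0.234 in submandibular pools. Slc25a20, which brings acylcarnitine into mitochondria, read 8.84 ± 0.997, against 1.37 ± 0.247 and 1.21 ± 0.254. The citrate carrier Slc25a1, whose product feeds lipid synthesis, read 12.6 ± 1.86, against 2.99 ± 0.506 and 5.21 ± 0.991. Slc6a14 read 6.98 ± 0.273, against 0.994 ± 0.241 and 1.29 ± 0.152. The thiamine transporter Slc19a2 read 3.41 ± 0.341, against 0.438 ± 0.116 and 0.882 ± 0.104, and the chloride and bicarbonate exchanger Slc4a2 read 3.37 ± 0.483, against 0.749 ± 0.142 and 1.39 ± 0.0748. Slc25a4, the translocator of heart and skeletal muscle, read 67.9 ± 4.23 there, against 6.17 ± 1.07 in the lacrimal gland and 38.6 ± 5.78 in the submandibular gland; the muscle markers summed highest in the same gland, and their part was not tested. Slc25a5 read 128 ± 1.07 in the meibomian placebo pools and 161 ± 6.85 in the submandibular gland, where it was called higher than in both others.

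**Figure D5:**
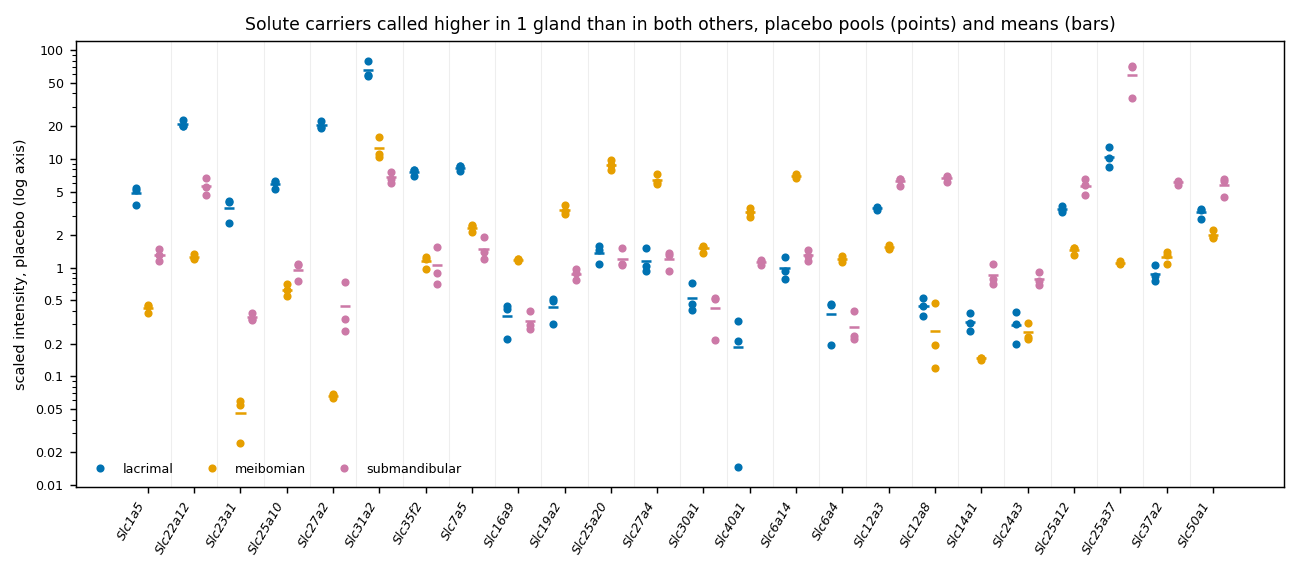
Scaled intensity (log axis) in placebo pools (points) and group means (bars) of 24 solute carriers called higher in 1 gland than in both others, for the lacrimal (blue), meibomian (yellow) and submandibular gland (pink). Slc27a2 and Slc22a12 stand out in the lacrimal, Slc6a14 and Slc40a1 in the meibomian, and Slc12a8 and Slc37a2 in the submandibular gland.

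In the submandibular gland Slc12a8 read 6.61 ± 0.454, against 0.441 ± 0.0846 in the lacrimal and 0.263 ± 0.187 in the meibomian gland. Slc37a2 read 6.06 ± 0.296, against 0.879 ± 0.153 and 1.26 ± 0.167. Of its 14 members called highest, 6 were among the 17 tested mitochondrial carriers: Slc25a37 read 59.1 ± 19.6 against 10.5 ± 2.23 and 1.11 ± 0.043, and Slc25a12 read 5.64 ± 0.939 against 3.44 ± 0.25 and 1.44 ± 0.108. The thiazide-sensitive sodium and chloride cotransporter Slc12a3 read 6.25 ± 0.512, against 3.51 ± 0.118 and 1.55 ± 0.0676. Slc12a8 and Slc37a2, highest here in placebo, are also the members that fell most with testosterone in this gland. The same placebo pools enter both comparisons, so these results are not independent.

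Slc12a2, the sodium, potassium and chloride cotransporter that loads acinar cells with chloride, was the clearest case of a value set by 1 array. It read 71.3, 66.5 and 0.316 in submandibular placebo pools, and in the lacrimal gland it had a mean of 4.4 ± 1.85 in placebo. The lacrimal change was -1.09 ± 1.22 (adjusted p = 0.556) with all arrays and -1.09 ± 0.25 (adjusted p = 0.00384) without submandibular placebo pool C, and -1.09 ± 0.29 (adjusted p = 0.0198) in the lacrimal arrays fitted alone. In the submandibular gland the change was 1.95 ± 1.22 with that pool and -0.43 ± 0.28 without it, neither of them called. The same pool was low for the insulin-responsive glucose transporter Slc2a4 (5.67, 5.34 and 0.229), whose change went from 1.18 ± 0.69 to -0.09 ± 0.31 without it. It was low as well for the phosphate transporter Slc34a2 (0.246 against 5.84 and 6.81), whose change went from 0.74 ± 0.72 to -0.58 ± 0.32. The lacrimal change of Slc34a2 was 0.55 ± 0.72 (adjusted p = 0.62) with all arrays and 0.55 ± 0.29 (adjusted p = 0.173) without that pool. In the lacrimal arrays fitted alone it was called (0.55 ± 0.13, adjusted p = 0.0104). Slc35b2, which carries the sulfate donor into the Golgi, read 0.223 in testosterone pool A against 2.93 and 3.54 in the others, and its change went from -1.63 ± 0.54 (adjusted p = 0.0588) to -0.59 ± 0.19 (adjusted p = 0.0618) without that pool. The bicarbonate transporter Slc4a10 read 0.202 in testosterone pool C against 2.37 in both others, with a change of -1.18 ± 0.49 and of -0.26 ± 0.18 without it.

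Slc25a13, the aspartate and glutamate carrier that is a relative of Slc25a12, had no values in the meibomian gland and so was not part of the joint fit. It read 1.06, 1.11 and 1.03 in lacrimal placebo pools and 5.72, 6.01 and 5.97 with testosterone, and in the lacrimal arrays fitted alone it rose by 2.29 ± 0.14 (adjusted p = 1.73e-06). In the submandibular arrays alone its change was 0.35 ± 0.15 (adjusted p = 0.231).

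Partners of the solute carriers without an Slc symbol were counted from lists written down with earlier results of these data known. Of 11 tested genes of the sodium pump and of carrier partners, 3 rose and 4 fell in the lacrimal gland and 1 rose and 1 fell in the submandibular gland, where 13.3% and 14.8% of all tested probes were called higher and lower in the lacrimal and 8.54% and 5.25% in the submandibular gland. Atp1b3, a beta subunit of the sodium pump, fell from 15.7 ± 1.53 to 6.12 ± 1.3 (-1.35 ± 0.15, adjusted p = 4.48e-06), and Emb, an ancillary protein of monocarboxylate transporters, from 4.06 ± 1.89 to 0.992 ± 0.0899 (-1.78 ± 0.32, adjusted p = 4.96e-04). Of 16 tested genes listed as carriers with other names, 5 rose and 2 fell in the lacrimal gland. In the submandibular gland 2 rose and none fell. The lacrimal falls include Heph (-1.20 ± 0.23), which is a ferroxidase and not a carrier. Sv2a, a synaptic vesicle protein, rose in the lacrimal gland from 1.25 ± 0.0989 to 8.88 ± 1.01 (2.67 ± 0.25, adjusted p = 4.45e-07). In the meibomian gland 1 rose and none fell, where 0.469% of all tested probes were called higher. It was Slco1c1, which went from 2.75 ± 0.221 to 5.03 ± 1.15 (0.81 ± 0.15, adjusted p = 0.0212).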

How the data were processed

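RNA of 18 pools (3 glands, placebo or testosterone, 3 pools each) was measured on 1-colour arrays. The authors deposited intensity per probe, linear and already scaled, as the array medians of 0.9289 to 0.9525 show. The sources used here do not give the array, scanner, background correction or scaling method. The value -1 was read as no value. Gene symbols came from the platform annotation, which can be old, names 1 gene for 8983 of 10500 probes and gives no coordinates. All 171 member probes matched RefSeq by gene ID, with 0 symbols changed.

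From the deposited intensity, log2(value + 0.174) was computed, the offset being the 10th percentile of the positive values, with values below 0 set to 0. Probes above their array's 40th percentile on at least 3 arrays, with at least 2 values per group, were tested (7463). The fit used limma 3.58.1 in R 4.3.3 with 1 coefficient for each of the 6 groups (12 residual degrees of freedom), eBayes with a trend and Benjamini-Hochberg adjustment over all tested probes; the number of arrays limits its precision. The same fit was tested on simulated data. Tables were made with pandas 2.3.3 and figures with matplotlib 3.10.9. Named were, per gland, up to 12 rises and 12 falls with pools apart, members called in 2 glands, the 10 smallest p-values of the F test, up to 8 placebo differences per gland, the 5 brightest members, up to 3 per class and a few fixed genes, and other called members after their values were seen. The members, classes and lists were chosen with earlier results of these data known. Correlations of the residuals of same-letter pools ran from -0.11 to 0.14 within glands (9 pairs) and from -0.065 to 0.13 across glands (18 pairs), so the letters were not used as a block. Alternatives were other offsets, filters, normalizations, variance models, thresholds, blocks, each gland alone and leaving out each array, and, chosen after seeing the data, -1 counted as 0 and a block within a gland.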

Additional observations from a re-analysis of the deposited data

Results flagged for a closer look

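These solute carriers were picked out because the change with testosterone differed among the 3 glands in limma's F test, where 34 of 118 passed (27.7% of all tested probes did). Each value is the adjusted p of that test for a member described in the report or named by its rule. For Slc14a1, Slc38a1, Slc6a14 and Slc25a4, called in opposite directions in the lacrimal and submandibular glands, the adjusted p adds no support beyond those calls. Among carriers that rose in the lacrimal gland it was 3.20e-08 for Slc5a3, 9.53e-08 for Slc14a1, 2.45e-06 for Slc27a2, 7.27e-06 for Slc38a1, 8.94e-06 for Slc17a6, 3.37e-04 for Slc20a1 and 6.68e-04 for Slc7a11. It was 0.00277 for Slc29a3, 0.00345 for Slc6a14, 0.00365 for Slc23a1, 0.00381 for Slc7a8, 0.00509 for Slc43a1, 0.00521 for Slc25a33, 0.00652 for Slc10a2, 0.0318 for Slc6a6 and 0.0327 for Slc24a2.

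Among carriers that fell in the lacrimal gland it was 6.74e-05 for Slc25a4, 4.64e-04 for Slc16a7, 0.00314 for Slc31a1, 0.0125 for Slc27a1, 0.0127 for Slc44a4, 0.0225 for Slc22a12, 0.0413 for Slc26a2 and 0.0419 for Slc30a4. Carriers called with testosterone in the submandibular gland and not in the lacrimal gland gave 8.40e-06 for Slc37a2, 0.00481 for Slc12a8, 0.0265 for Slc29a2 and 0.0478 for Slc48a1. Slc4a2 (0.0232) and Slc12a3 (0.0391) were called in no gland by itself. Slc4a2 read 2.82, 3.73 and 3.55 in meibomian placebo pools and 2.22, 2.61 and 2.54 with testosterone, and 1.4, 1.47 and 1.32, and 2.06, 1.55 and 1.97, in the submandibular gland.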

How the results depend on the processing

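Of 63 called changes of solute carriers (40 lacrimal, 23 submandibular) none reversed under any alternative run. In every run that tested them 30 stayed called. They were 24 in the lacrimal gland and, in the submandibular gland, Slc12a8, Slc17a6, Slc20a1, Slc25a4, Slc27a2 and Slc37a2. Among the 24, Slc34a1 and Slc6a9 were tested in 28 of 32 such runs. Leaving out 1 array gave 30 to 41 calls in the lacrimal, 0 to 3 in the meibomian and 16 to 25 in the submandibular gland, 25 to 40 in the F test, and 80 to 91, 50 to 58 and 77 to 91 in the placebo comparisons of lacrimal with meibomian, lacrimal with submandibular and meibomian with submandibular. The meibomian count of 0 became 3 without submandibular placebo pool A, 2 without meibomian testosterone pool C and 1 without lacrimal placebo pool C. It was 4 at an adjusted p of 0.1, 2 with a smaller offset, 1 with the filter at the array median, 1 with -1 counted as 0, 4 in its own arrays alone and 32 with array weights. The submandibular count of 23 became 14 at an adjusted p of 0.01 and 9 in its own arrays alone, and the F test's 34 became 19 at 0.01. With the pool letter as a replicate block over all arrays the counts were 39, 0, 23 and 35, and 90, 58 and 90 in placebo; the labels do not say whether the letters pair the pools. A replicate block in the submandibular arrays alone gave 6. The causes of these changes were not tested. No scaling moved the median of all probes by over 0.1. The brightness over background that limits dim members is not known from these values.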
